A study of Mus musculus with 8 samples.

Results

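Genes that mark the cells of blood and lymph vessels were followed in mouse brown adipose tissue, a fat that burns fuel to make heat. The set held 38 of the 22552 genes in the deposited mRNA table and was drawn up by name: 22 endothelial genes, 4 lymphatic genes, 6 pericyte genes and 6 smooth muscle genes. The tissue came from mice that lack mir-193b (-/-, called Null; the series title names miR-365-1 as also absent) and from wild-type mice (+/+, WT), all aged 2 months and of a background that mixes the strains 129SV, FVB/N and C57BL/6. As given in the labels' protocols, heterozygous mice were bred from floxed mir-193b mice with an MMTV-Cre transgene, which was then bred out. The labels describe 3 Null and 3 WT mRNA-seq samples, and 1 Null and 1 WT microRNA-seq sample. The mRNA values were deposited as 1 FPKM value per genotype (fragment counts scaled by transcript length and by library size), here called the Null pool and the WT pool. There were therefore no replicate values to compare, no difference below has an error or a test, and mRNA depth is unknown.

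Endothelial cells line every vessel and are held together by adhesion molecules such as VE-cadherin and claudin-5. They grow and survive on signals through the VEGF receptors and the Tie receptors. Mural cells wrap them from outside: pericytes sit on capillaries and depend on PDGF receptor beta and Notch3, while smooth muscle cells surround arteries and veins and contract with actin, myosin and calponin. Lymphatic endothelium is a separate lineage set by the factor Prox1. Brown fat has a dense capillary bed that brings oxygen and fuel to the fat cells and carries heat away.

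All 38 genes were in the table. Of these, 37 had a mean of at least 1 FPKM over both pools, and Prox1 did not. Differences are given as log2((Null + 1)/(WT + 1)) of FPKM, so a positive value means higher in Null, and this scale understates the difference of low genes. A gene was counted as apart at 1.5-fold on that scale. Of the 37 genes, 3 were at least 1.5-fold higher in Null, Cldn5, Egfl7 and Ramp2, which is 8.11% beside 7.87% of the 11597 genes that passed the same filter. Only Notch3 among the 37 was at least 1.5-fold lower, or 2.70% beside 6.75% of all genes. At 2-fold, 2 of the 37 were higher, Cldn5 and Egfl7, or 5.41% beside 2.17% of all genes, and 0 were lower, beside 1.65%. These counts moved with the setting: with a pseudocount of 0.1 FPKM, 7 of the 37 were at least 1.5-fold higher and 4 lower (18.9% and 10.8%, beside 10.3% and 9.15% of all genes). With both columns scaled to the same sum, 2 were higher and 6 lower (5.41% and 16.2%, beside 4.64% and 15.4%). The median log2 ratio of the 37 was 0.08 and that of all genes was 0.01. Across the 37 genes, levels in the Null and WT pools had a Pearson correlation of 0.970 on the log2(FPKM + 1) scale, against 0.953 across all 11597 genes. These are descriptions across genes, which share the same libraries.

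**Figure D1:**
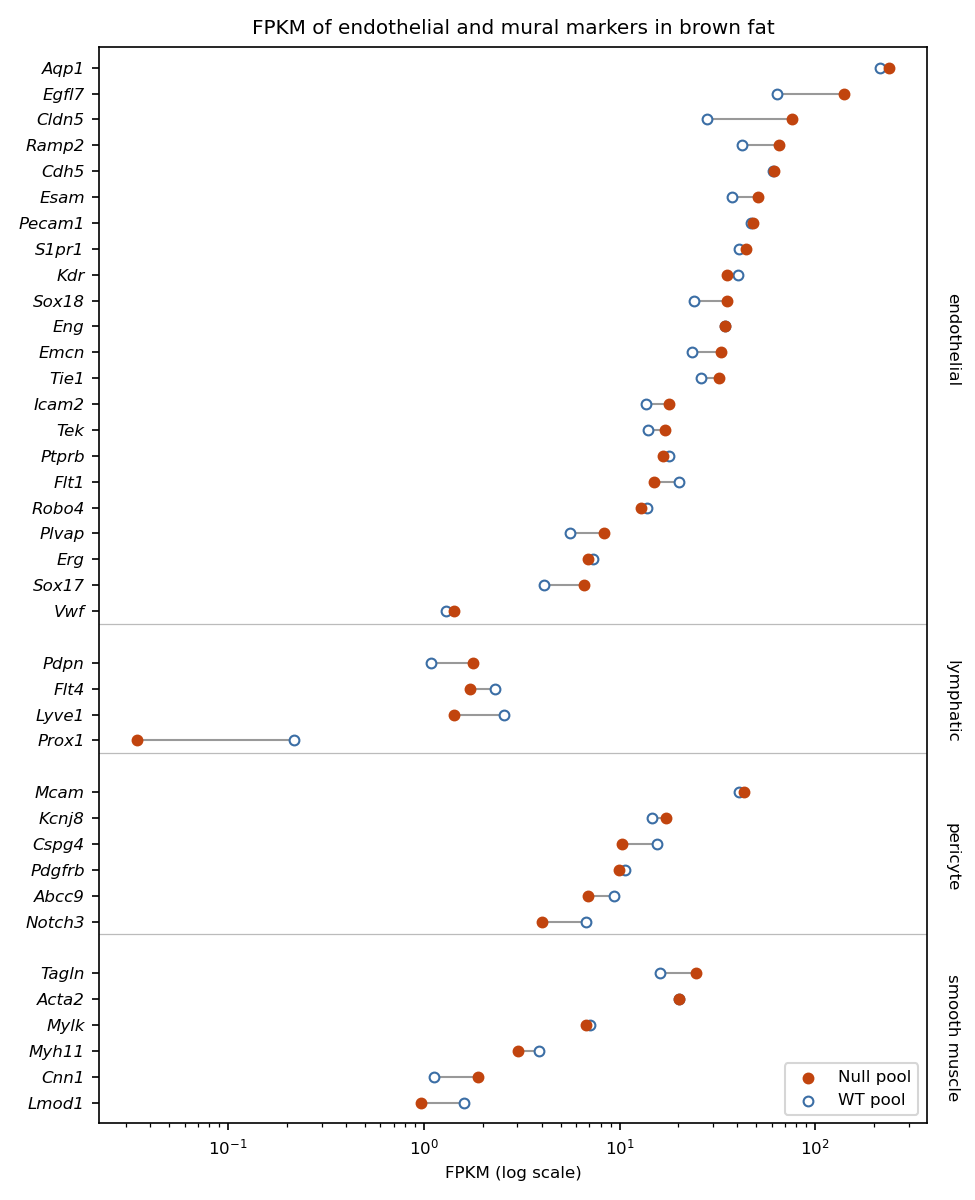
Level of each of the 38 markers in the Null pool (filled) and the WT pool (open), in FPKM on a log axis, grouped by cell class and ordered by the Null value. Aqp1 is highest in both pools, and the widest gaps among abundant genes are those of Cldn5 and Egfl7.

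The tissue held the fat cell genes its label implies, with Ucp1, the uncoupling protein of brown fat, at 2487 FPKM in the Null pool and 3016 FPKM in the WT pool. Of the 7 fat cell genes 4 were above 0 (57.1%, beside 50.6% of all genes), with a median log2 ratio of 0.03 and a range from -0.55 to 0.71. The medians of 4 lists of other cells lay farther from 0 than that of any vessel class, among them 0.45 for fibroblast, 0.49 for macrophage and 1.48 for red cell genes. All 8 skeletal muscle markers were lower in Null. They summed to 1619 FPKM in Null and 2549 FPKM in WT, and their median log2 ratio was -1.19. Of the 4 red cell genes used here, the 3 that passed the filter were higher, and the 4 summed to 349 FPKM in Null and 113 FPKM in WT, with Slc4a1, the anion exchanger of the red cell membrane, lowest at 0.0663 FPKM in Null and 0.0445 FPKM in WT. Macrophage markers were higher in 6 of 8 genes (83.4 FPKM in Null and 48.8 FPKM in WT in sum), and fibroblast markers in 7 of 8 (498 FPKM in Null and 338 FPKM in WT). Of all genes, 50.6% were higher and 49.4% lower as deposited. With both columns scaled to the same sum, 31.4% of all genes were higher, and the counts of these lists were not repeated there. No gene of these 4 lists was listed at 0 in either pool. The part of these cells in the vessel gene values was not tested. Ratios were uneven within the lists. Among macrophage genes Tyrobp was at 0.83 and Cd163 at -0.15, and among skeletal muscle genes Ckm was at -0.47 and Myh2 at -1.86. The 4 lists were not split by length of the coding region, and the part of length in their values was not tested. In bulk tissue, fewer cells of a type and less RNA per cell cannot be told apart.

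Endothelial genes were for the most part slightly higher in the Null pool. Their median log2 ratio was 0.21, and 17 of 22 were above 0, or 77.3% beside 50.6% of all genes. This direction depended on the scaling of the columns, because the deposited values sum to 590327 FPKM in Null and 508701 FPKM in WT: with both columns scaled to the same sum, 11 of 22 were above 0, beside 31.4% of all genes, and the median was 0.0025, while the median of all genes moved to -0.18. With quantile normalization 13 of 22 were above 0, or 59.1% beside 49.7% of all genes. Set against the median of all genes, 16 of the 22 were higher as deposited, 14 with quantile normalization and 15 with equal sums. In sum, the 22 genes were at 999 FPKM in Null and 781 FPKM in WT.

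The highest endothelial ratio was that of a junction gene. Cldn5, which encodes the tight junction protein claudin-5, was at 76.1 FPKM in Null and 27.9 FPKM in WT, a log2 ratio of 1.42 and the highest of the 37. Cdh5, which encodes VE-cadherin of the adherens junction and marks the same cells, was at 61.2 FPKM in Null and 61.0 FPKM in WT (0.01). The ratio of Cldn5 to Cdh5 was therefore 1.24 in the Null pool and 0.457 in the WT pool, so the junction gene that was lower in WT was the higher in Null. Cldn5 has a short coding region and Cdh5 a long one, classes defined below, and the part of length in this ratio was not tested. Pecam1, an adhesion molecule of endothelium that platelets and leukocytes also carry, was at 48.2 FPKM in Null and 46.8 FPKM in WT (0.04, and -0.17 with equal sums). Esam, a cell adhesion molecule of endothelial junctions, was at 50.8 FPKM in Null and 37.6 FPKM in WT (0.42), and Icam2, a ligand for leukocyte integrins, was at 17.9 FPKM in Null and 13.6 FPKM in WT (0.37). Emcn, a sialomucin of capillary and venous endothelium, was at 33.2 FPKM in Null and 23.5 FPKM in WT (0.48). Ptprb, the phosphatase VE-PTP that acts on VE-cadherin and Tie2, was at 16.8 FPKM in Null and 17.8 FPKM in WT (-0.08). Cldn5 thus stood apart from the other 6 genes of this group, whose log2 ratios ran from -0.08 to 0.48.

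Egfl7 was the other of the 22 endothelial markers to be more than 2-fold higher. It encodes a protein that endothelial cells secrete into the vessel matrix, and the precursor of miR-126 lies within the gene. Egfl7 was at 141 FPKM in Null and 63.7 FPKM in WT, a log2 ratio of 1.13, and was the second highest among the 38 in both pools. With equal column sums its ratio was 0.92, below 2-fold. Its level was 2.92 times that of Pecam1 in Null and 1.36 times in WT. Here too a gene with a short coding region was set against one with a long one. RefSeq (GRCm38.p6) annotates 3 starts for Egfl7 and 1 for Cldn5, and the FPKM table does not separate the starts. The 250 bases before each are shown because these were the 2 markers past 2-fold, 5′ to 3′ on the plus strand, with matches to an ETS core (CNGGAAG, either strand) in capitals.
Egfl7 start 1, chr2:26580833-26581082: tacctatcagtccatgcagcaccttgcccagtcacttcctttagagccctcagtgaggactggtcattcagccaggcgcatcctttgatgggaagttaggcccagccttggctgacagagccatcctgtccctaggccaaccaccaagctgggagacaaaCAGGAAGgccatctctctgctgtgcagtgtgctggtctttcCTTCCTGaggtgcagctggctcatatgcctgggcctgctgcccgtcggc
Egfl7 start 2, chr2:26583615-26583864: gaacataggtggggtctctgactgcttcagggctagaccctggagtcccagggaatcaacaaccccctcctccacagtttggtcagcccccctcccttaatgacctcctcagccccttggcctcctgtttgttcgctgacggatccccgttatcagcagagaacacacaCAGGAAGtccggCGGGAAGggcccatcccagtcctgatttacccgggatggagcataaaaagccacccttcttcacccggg
Egfl7 start 3, chr2:26586386-26586635: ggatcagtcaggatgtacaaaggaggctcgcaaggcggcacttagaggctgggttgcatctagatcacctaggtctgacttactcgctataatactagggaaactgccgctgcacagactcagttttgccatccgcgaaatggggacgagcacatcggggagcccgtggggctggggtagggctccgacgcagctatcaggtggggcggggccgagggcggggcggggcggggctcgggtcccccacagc
Cldn5, chr16:18776597-18776846: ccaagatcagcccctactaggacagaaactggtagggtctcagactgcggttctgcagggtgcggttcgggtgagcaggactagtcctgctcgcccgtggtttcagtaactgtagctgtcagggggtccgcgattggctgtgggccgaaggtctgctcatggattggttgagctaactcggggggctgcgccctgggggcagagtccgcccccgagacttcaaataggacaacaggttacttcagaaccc
ETS factors such as Erg and Fli1 are known regulators of endothelial genes. The stretches before the first and the second start of Egfl7 each held 2 matches, and those before the third start and before Cldn5 held none. Over windows of 300 bases, from 250 before to 50 after a start, 11 of the 28 windows of the markers held the core (39.3%), beside 31.9% of the 32851 RefSeq windows. Of the 38 markers, 23 had a window. A match is a run of letters and not evidence of binding, and the windows without one say nothing about the factor.

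The receptors for vessel growth signals differed less. Kdr, the main signalling receptor for VEGF-A, was at 35.6 FPKM in Null and 40.3 FPKM in WT (-0.17), and Flt1, a VEGF receptor known largely as a decoy, was at 15.0 FPKM in Null and 20.2 FPKM in WT (-0.41). Flt1 had the lowest ratio of the 22 endothelial genes. Kdr was 2.37 times the level of Flt1 in Null and 1.99 times in WT. Tek, which encodes the angiopoietin receptor Tie2, was at 17.0 FPKM in Null and 14.0 FPKM in WT (0.26), and its partner Tie1 was at 32.1 FPKM in Null and 26.0 FPKM in WT (0.29). The level of Tie1 relative to Tek was 1.89 in Null and 1.86 in WT, so these receptors kept nearly the same proportion in both pools. Eng, which encodes the TGF-beta family co-receptor endoglin, was at 34.7 FPKM in each pool. Robo4, a guidance receptor of endothelium, was at 12.8 FPKM in Null and 13.9 FPKM in WT (-0.10). S1pr1, the receptor for sphingosine-1-phosphate that lymphocytes also carry, was at 44.4 FPKM in Null and 40.9 FPKM in WT (0.12, and -0.09 with equal sums). Ramp2 differed most among these endothelial receptors and receptor components. It pairs with the product of Calcrl to form the adrenomedullin receptor and was at 65.4 FPKM in Null and 42.5 FPKM in WT, a log2 ratio of 0.61, just past 1.5-fold. With equal column sums it was 0.40 and with quantile normalization 0.56, both short of 1.5-fold.

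The ligands and partners of these receptors were taken from lists of other vessel genes. Of 15 ligand genes that passed the filter, 2 were at least 1.5-fold higher and 0 lower (13.3% and 0%, beside 7.87% and 6.75% of all genes), with a median log2 ratio of 0.02 and a range from -0.34 to 1.13. Angpt1, the ligand that activates Tie2 and is made mainly by mural and stromal cells, was at 20.3 FPKM in Null and 8.72 FPKM in WT (1.13). Its antagonist Angpt2, named here after its value was seen, was at 1.64 FPKM in Null and 1.46 FPKM in WT, so Angpt1 was 12.4 times Angpt2 in Null and 5.97 times in WT. Vegfc, a ligand of the lymphatic receptor Flt4, was at 2.25 FPKM in Null and 1.13 FPKM in WT (0.61). Adm, which encodes adrenomedullin, was at 2.83 FPKM in Null and 1.89 FPKM in WT (0.41). At the other end of the list were Vegfa at 188 FPKM in Null and 213 FPKM in WT (-0.18), Tgfb1 (-0.32) and the pericyte-recruiting Pdgfb at 11.0 FPKM in Null and 14.2 FPKM in WT (-0.34).

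Of 16 other receptors and co-receptors, 2 were at least 1.5-fold higher and 2 lower (12.5% each way, beside 7.87% and 6.75% of all genes), with a median of -0.15. Aplnr, the apelin receptor, was at 20.0 FPKM in Null and 10.2 FPKM in WT (0.91), and Calcrl, the partner of Ramp2, was at 6.96 FPKM in Null and 3.62 FPKM in WT (0.79). Bmpr2, a receptor for bone morphogenetic proteins, was at 3.58 FPKM in Null and 7.20 FPKM in WT (-0.84), and Nrp2, a co-receptor for VEGF-C, was at 17.7 FPKM in Null and 30.5 FPKM in WT (-0.75). The most abundant of the list was Tgfbr2, at 60.0 FPKM in Null and 67.3 FPKM in WT.

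Transcription factors of the endothelium were moderate in level. Sox17 and Sox18, related SoxF factors of vessel development, were at 6.60 and 35.2 FPKM in Null, against 4.11 and 24.1 FPKM in WT (0.57 and 0.53). Both lay just short of 1.5-fold. Erg, an ETS factor that maintains endothelial identity, was at 6.93 FPKM in Null and 7.33 FPKM in WT (-0.07). Its relative Fli1, from the list of other endothelial genes, was at 14.8 FPKM in Null and 7.44 FPKM in WT (0.91).

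The remaining endothelial markers ranged widely in level. Aqp1, a water channel that red cells also carry, was the most abundant of the 38, at 239 FPKM in Null and 214 FPKM in WT (0.16, and -0.06 with equal sums). In each pool 96.9% of the genes that passed the filter were below it. Plvap, which forms the diaphragms of fenestrae and caveolae, was at 8.30 FPKM in Null and 5.62 FPKM in WT (0.49). Vwf, the clotting factor stored by endothelium of larger vessels, was the least abundant endothelial marker, at 1.43 FPKM in Null and 1.30 FPKM in WT (0.08). In the list of 24 other endothelial genes, 23 passed the filter, 5 were at least 1.5-fold higher and 0 lower (21.7% and 0%, beside 7.87% and 6.75% of all genes), with a median of 0.29. Gpihbp1, which carries lipoprotein lipase across capillary endothelium, was at 289.9 FPKM in Null and 131 FPKM in WT (1.14). Lmo2, a cofactor of endothelial and blood cell development, was at 12.2 FPKM in Null and 6.72 FPKM in WT (0.77). The shear-responsive factors Klf2 (-0.36) and Klf4 (-0.37) and Cyyr1 (-0.39) were lowest. Cd36, a fatty acid carrier that fat cells share, was the most abundant at 1119 FPKM in Null and 884 FPKM in WT.

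**Figure D2:**
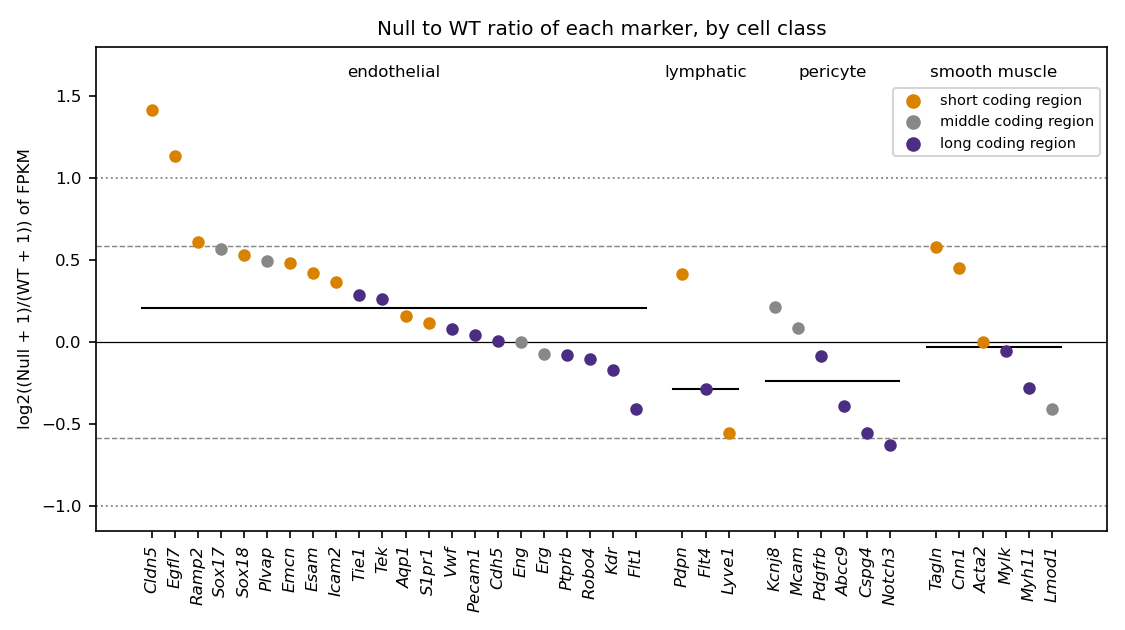
Log2 ratio of Null to WT for the 37 markers that passed the filter on low values, by cell class, coloured by length of the coding region; dashed lines mark 1.5-fold, dotted lines 2-fold, and black bars the class medians. The endothelial median lies at 0.21 and those of the other 3 classes below 0.

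Lymphatic markers were at low levels. Prox1, which sets lymphatic identity, was at 0.0342 FPKM in Null and 0.218 FPKM in WT and failed the filter on low values. Flt4, the receptor for VEGF-C, was at 1.72 FPKM in Null and 2.32 FPKM in WT (-0.29). Lyve1, a hyaluronan receptor that tissue macrophages also carry, was at 1.43 FPKM in Null and 2.57 FPKM in WT (-0.55), whereas Pdpn, which fibroblasts also carry, was at 1.78 FPKM in Null and 1.09 FPKM in WT (0.41). The 4 genes summed to 4.97 FPKM in Null and 6.19 FPKM in WT. Their directions were mixed, and none passed 1.5-fold on the log2(FPKM + 1) scale. With a pseudocount of 0.1 FPKM, Lyve1 (-0.80) and Prox1 (-1.24, under the filter) were past 1.5-fold lower and Pdpn (0.66) past 1.5-fold higher. The median of the 3 genes that passed the filter was then -0.41 in place of -0.29. Prox1, the defining factor of the lineage, was the lowest of the 38 in both pools.

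Pericyte markers were mixed in direction, with a median slightly lower in the Null pool. Their median log2 ratio was -0.24, and 4 of 6 were below 0, as were 49.4% of all genes. The 4 lower genes all have long coding regions (median -0.47) and the 2 higher ones middle-size ones (median 0.15), classes defined below. Cell class and length therefore cannot be told apart here. Set against the median of all genes the class stood at -0.24 as deposited, -0.19 with quantile normalization and -0.27 with equal sums. Notch3, the Notch receptor that keeps mural cells mature, was at 4.02 FPKM in Null and 6.74 FPKM in WT, a log2 ratio of -0.63 and the lowest of the 37. Heyl, a target of Notch3 signalling and among the lowest 3 of the other mural genes, was at 4.41 FPKM in Null and 7.33 FPKM in WT (-0.62). It is 1 gene of its list, and Notch signalling was not tested. Cspg4, which encodes the NG2 proteoglycan, was at 10.3 FPKM in Null and 15.6 FPKM in WT (-0.56). Pdgfrb, the receptor through which endothelial PDGF-B recruits pericytes, was at 9.99 FPKM in Null and 10.7 FPKM in WT (-0.09). Kcnj8 and Abcc9, which encode the pore and the sulfonylurea receptor of the same potassium channel and are neighbours on the chromosome, lay on opposite sides of 0. Kcnj8 was at 17.2 FPKM in Null and 14.7 FPKM in WT (0.21, and 0.01 with equal sums), and Abcc9 was at 6.91 FPKM in Null and 9.35 FPKM in WT (-0.39). Their ratio was 2.49 in Null and 1.58 in WT. Abcc9 is a long gene and Kcnj8 a middle-size one. The parts of length and of other cells, such as skeletal muscle, in this ratio were not tested. Mcam, a cell adhesion molecule found on endothelium as well, was the most abundant at 43.2 FPKM in Null and 40.6 FPKM in WT (0.08, and -0.13 with equal sums).

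Smooth muscle markers were at low to moderate levels, with a median log2 ratio of -0.03. Acta2, which encodes smooth muscle alpha-actin, was at 20.0 FPKM in Null and 20.1 FPKM in WT (-0.0009). Tagln, which encodes the actin-binding protein SM22, was at 24.5 FPKM in Null and 16.0 FPKM in WT (0.58), just short of 1.5-fold, so that Tagln was 1.22 times Acta2 in Null and 0.800 times in WT. Tagln overlaps the protein-coding gene Pcsk7, and their reads may be shared. Cnn1, which encodes calponin, was at 1.90 FPKM in Null and 1.12 FPKM in WT (0.45). Myh11, the smooth muscle myosin heavy chain, was at 3.01 FPKM in Null and 3.87 FPKM in WT (-0.28). Mylk, the kinase that starts smooth muscle contraction, was at 6.73 FPKM in Null and 7.04 FPKM in WT (-0.06), and Lmod1, an actin filament nucleator, was at 0.964 FPKM in Null and 1.60 FPKM in WT (-0.41). These 6 genes therefore ran from -0.41 to 0.58 and did not move together.

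Smooth muscle genes are known targets of serum response factor, which binds the CArG box. The 250 bases before the start of Acta2, the smooth muscle marker with the smallest difference, are shown with CArG boxes in capitals, each of them with 1 G or C in its centre (RefSeq GRCm38.p6, minus strand, 5′ to 3′).
Acta2, chr19:34255374-34255623: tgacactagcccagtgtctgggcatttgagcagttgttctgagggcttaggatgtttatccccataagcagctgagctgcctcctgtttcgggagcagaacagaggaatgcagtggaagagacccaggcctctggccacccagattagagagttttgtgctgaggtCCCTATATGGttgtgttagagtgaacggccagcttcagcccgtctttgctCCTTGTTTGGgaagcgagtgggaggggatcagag
The boxes begin 84 and 34 bases before the start. Over windows of 300 bases, such a box with 1 G or C was in 5 of the 28 windows of the markers (17.9%), beside 8.50% of all 32851 windows. Acta2 was the only one of the 4 smooth muscle genes with a window to hold it. A box without a G or C in its centre was in 0 of the 28 windows and in 1.63% of all.

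The list of 18 other mural genes had 14 that passed the filter, 2 at least 1.5-fold higher and 3 lower (14.3% and 21.4%, beside 7.87% and 6.75% of all genes), with a median of -0.21. Cox4i2 at 7.53 FPKM in Null and 4.40 FPKM in WT (0.66) and Ndufa4l2 at 16.8 FPKM in Null and 10.7 FPKM in WT (0.60), small mitochondrial proteins of pericytes, were highest, and Higd1b was next (0.13). Synpo2 at 2.10 FPKM in Null and 4.33 FPKM in WT (-0.78) and Tpm2 at 138 FPKM in Null and 230 FPKM in WT (-0.73) were lowest. The most abundant was Tpm1, at 289 FPKM in Null and 380.4 FPKM in WT. Tpm1, Tpm2 and Synpo2 are also expressed in skeletal muscle, all 8 of whose markers were lower in Null. The part of skeletal muscle in their values was not tested. The vascular basement membrane list had 0 of 13 genes past 1.5-fold in either direction, beside 7.87% and 6.75% of all genes, and a median of -0.16, from Lamb1 (-0.47) and Lamc1 (-0.44), laminin chains, and Hspg2 (-0.38) up to Sparc at 532 FPKM in Null and 488 FPKM in WT (0.12).

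Markers with short coding regions stood above those with long ones. Each marker was placed by the known size of its protein, short for under 400 residues and long for 700 or more; these sizes come from general knowledge, were not measured here and leave out the untranslated parts of the mRNA. The 14 short markers had a median log2 ratio of 0.44, with 12 above 0 (85.7%). The 16 long ones that passed the filter had a median of -0.10, with 5 above 0 (31.2%). These medians were 0.53 apart. Of all genes of any length, 50.6% were above 0. All 3 markers that were at least 1.5-fold higher in Null were short, and Notch3, the only one at least 1.5-fold lower, was long. The 7 of middle size had a median of 0.08. Against the median of all genes, 12 short markers were higher under each of the 3 scalings, and 5 long markers as deposited, 3 with quantile normalization and 4 with equal sums.

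The same order was present inside the cell classes. Among endothelial genes, the 9 short ones had a median of 0.48 and ran from 0.12 (S1pr1) to 1.42 (Cldn5), and the 9 long ones had a median of 0.01 and ran from -0.41 (Flt1) to 0.29 (Tie1). Among pericyte and smooth muscle genes together, the 3 short ones, Tagln, Cnn1 and Acta2, had a median of 0.45. The 6 long ones, Notch3, Cspg4, Abcc9, Myh11, Pdgfrb and Mylk, had a median of -0.33, all of them below 0. All 3 short genes here are of smooth muscle and 4 of the 6 long ones are of pericytes, so this is not a comparison within 1 class. Within smooth muscle the 3 short genes had a median of 0.45 and the 2 long ones of -0.17. Its middle-size gene Lmod1 was at -0.41, below both long ones. The long genes also differed between groups, with medians of 0.01 for endothelial and -0.33 for mural genes, and the parts of class and length were not tested. Cell class and length overlap in this set: 9 of 22 endothelial genes were short, and 0 of 6 pericyte genes were. Lyve1, a short gene at -0.55, went against this order.

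**Figure D3:**
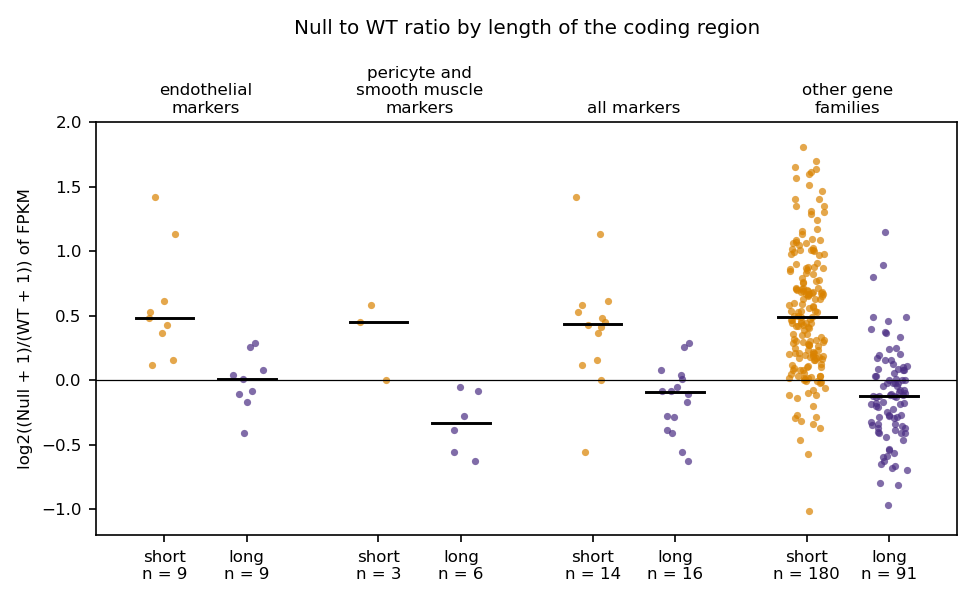
Log2 ratio of Null to WT for markers and for other gene families with short and long coding regions; each point is a gene that passed the filter, spread sideways for clarity, and bars are medians. Short genes lie above long ones in each of the 4 groups, with medians of 0.48 and 0.01 for endothelial markers.

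Gene families of other functions, found by symbol and chosen with earlier results of these data known, were set beside the markers. Each family was classed as a whole, so single members may lie outside the size limits. In 4 families of short proteins (ribosomal proteins of the cytosol and of mitochondria, accessory subunits of complex I and proteasome core subunits), 160 of 180 genes were above 0, with a median of 0.49. In 7 families of long proteins (laminins, plexins, kinesins, unconventional myosins, ABC transporters, integrins and collagens), 31 of 91 were above 0, with a median of -0.13. Both counts stand beside 50.6% of all genes above 0. The gap between these medians was 0.61, against 0.53 for the markers and 0.47 for endothelial markers alone. It was 0.78 for pericyte and smooth muscle markers together, where cell class and length overlap. Families were not all alike: medians ran from 0.17 for the proteasome core to 0.88 for cytosolic ribosomal proteins, and from -0.46 for plexins to 0.09 for integrins. Cytosolic ribosomal proteins made up 63 of the 180 short genes. Their levels were uneven, with Rps13 at 1.82 FPKM and Rps15 at 1002 FPKM in Null, and how well they were measured was not tested. The long families hold 9 genes of the vessel lists, among them the marker Abcc9. Without these 9, an alternative chosen after seeing the data, 30 of 82 long genes were above 0, with a median of -0.11, and the gap was 0.60. A short-to-long gap in the Null to WT ratio was present in these chosen families too, which are not an independent check. All genes were not split by length, and the part that length plays in any marker's ratio was not tested.

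**Figure D4:**
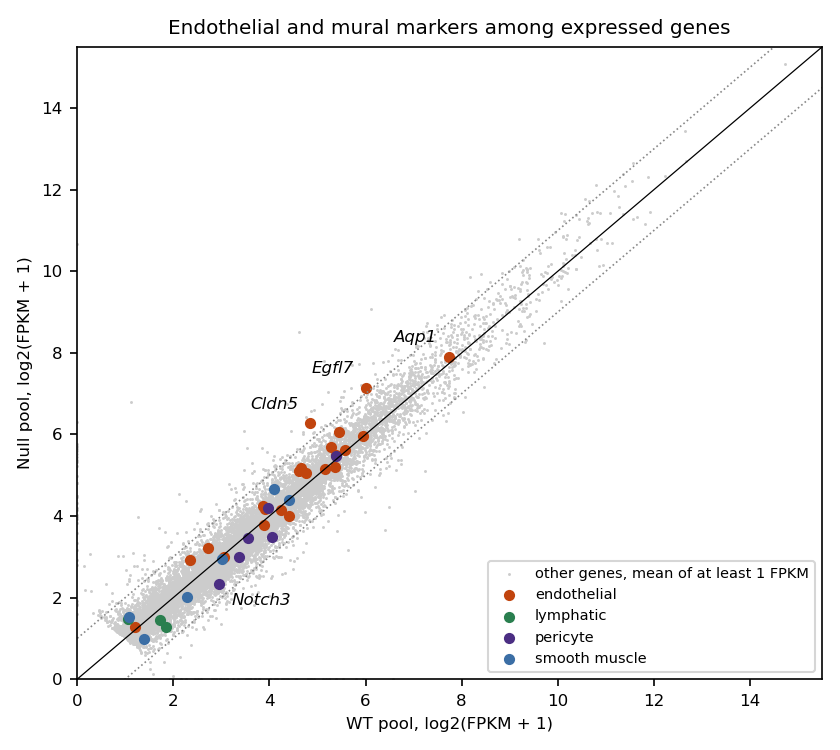
Levels in the Null pool against the WT pool on log2(FPKM + 1) scales for the 11597 genes that passed the filter (grey) and for the 37 markers (coloured by class); the solid line marks equal levels and dotted lines 2-fold. Cldn5 and Egfl7 are the markers outside the dotted lines.

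MicroRNAs of vessel cells gave a second readout, from 1 Null and 1 WT library. Of 10 chosen by name, 9 were in the table of 386. miR-126, from within Egfl7, is the best known microRNA of endothelium, miR-143 and miR-145 are typical of smooth muscle, and miR-221 and miR-222 are known regulators in both. The mature RefSeq sequences of miR-126-3p, for its host gene Egfl7, and of miR-221-3p and miR-222-3p, as a pair, are shown with the seed, bases 2 to 8, in capitals (GRCm38.p6). RefSeq calls miR-126-3p miR-126a-3p.
miR-126a-3p, chr2:26591402-26591423, plus strand: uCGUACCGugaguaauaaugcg
miR-221-3p, chrX:19146307-19146329, minus strand: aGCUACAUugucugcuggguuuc
miR-222-3p, chrX:19146901-19146923, minus strand: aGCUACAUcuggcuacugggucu
miR-221-3p and miR-222-3p share their seed, and miR-126a-3p has another.

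Both strands of miR-126 were abundant and were higher in Null. miR-126-5p was at 80228 RPM in Null and 61825 RPM in WT. Their ratio was 1.30, with a 95% exact Clopper-Pearson interval of 1.29 to 1.30. miR-126-3p was at 22387 RPM in Null and 17764 RPM in WT (ratio 1.26, interval 1.26 to 1.27). The median ratio of the 323 microRNAs that averaged 10 RPM or more was 1.13, and relative to it the ratios were 1.15 and 1.11. Of those 323, 76.2% had a lower ratio than miR-126-5p and 71.5% a lower one than miR-126-3p, so the endothelial microRNAs stood only moderately above the rest. The host gene Egfl7 was 2.21-fold higher in FPKM, a larger difference than that of either strand, in a separate assay.

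The smooth muscle microRNAs had ratios from 0.996 to 1.32. miR-143-3p was the fifth most abundant microRNA in both libraries, at 95581 RPM in Null and 95923 RPM in WT (0.996, 0.995 to 0.998). Its partner miR-143-5p was at 63.6 RPM in Null and 48.2 RPM in WT (1.32, 1.22 to 1.43). miR-145a-5p was at 2514 RPM in Null and 2172 RPM in WT (1.16, 1.14 to 1.17), and miR-145a-3p was at 732 RPM in Null and 728 RPM in WT (1.01, 0.984 to 1.03). miR-221-3p had a ratio of 1.08 (1.05 to 1.12), miR-221-5p of 0.976 (0.844 to 1.13) and miR-222-3p of 1.19 (1.13 to 1.25). Relative to the median of all microRNAs, miR-143-3p stood at 0.881 and miR-145a-5p at 1.02. In the authors' deposited table all 9 had an adjusted p of 1, in a test that compares these 2 libraries and not groups of mice. The intervals hold only the error of counting, as reads copied by PCR are not separate molecules.

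**Figure D5:**
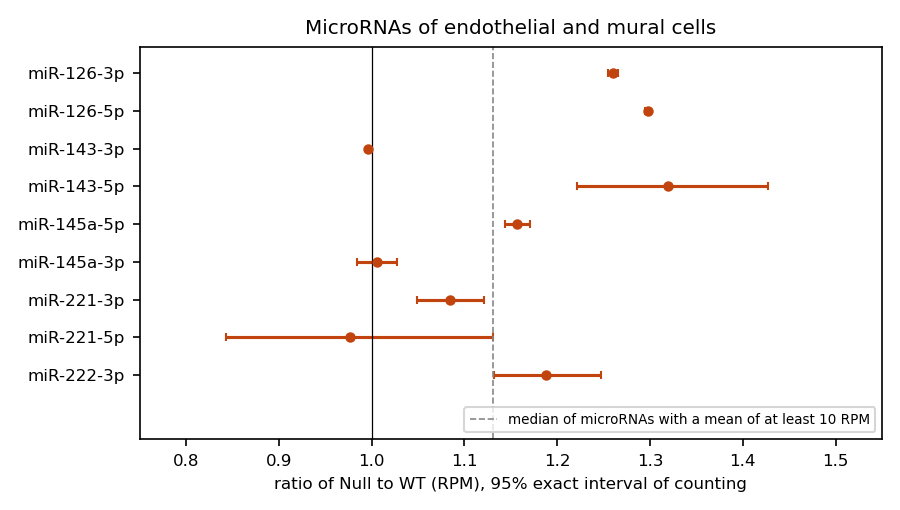
Ratio of Null to WT in RPM for the 9 vessel microRNAs in the table, with 95% exact intervals of counting; the solid line marks 1 and the dashed line the median of the 323 microRNAs, 1.13. Both strands of miR-126 lie right of the dashed line and miR-143-3p lies left of it.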

How the data were processed

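Brown adipose tissue was measured by mRNA-seq in 3 Null and 3 WT samples and by microRNA-seq in 1 sample of each; groups come from the sample titles. Per the submitters' processing notes, the build was mm9 and the tools were BWA, CASAVA, DESeq, edgeR and TopHat; their roles and versions, the annotation and the strand setting are not stated there. The authors deposited mRNA levels as FPKM, with 1 column per genotype, so the 3 libraries were pooled or averaged, and which of these is not stated. MicroRNA values, headed RPM by the authors, sum to 1578515 in Null and 1559381 in WT, so they are not shares of the listed reads, and were treated as a signal; the deposited values came in whole steps, which differ by library (0.0411 in Null and 0.0438 in WT, within 0.01 step), which gave the read numbers behind the intervals. The authors also deposited a ratio of Null to WT, a p-value and an adjusted p-value for each microRNA.

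Log2((Null + 1)/(WT + 1)) of FPKM was computed for genes averaging 1 FPKM or more, with no test (Python 3.11.15, pandas 2.3.3, scipy 1.17.1), after a check on simulated data. All 38 markers are named; of each other vessel list the 3 highest and 3 lowest ratios and the most abundant gene were eligible. The members, lists, length classes and families were chosen with earlier results of these data known. Alternatives were a pseudocount of 0.1 FPKM, no filter, a mean of at least 5 FPKM, quantile normalization and equal column sums. A linear model was planned only for columns per sample and was not run. RefSeq tables (GRCm38.p6) gave names and sequences; all 38 markers matched. By that annotation 13 markers overlap another gene, 3 of them (Eng, Plvap and Tagln) a protein-coding one, and their reads may be shared. A gene of the red cell list as first drawn up is not reported here.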

Additional observations from a re-analysis of the deposited data

How the results depend on the processing

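No paired analysis was possible because the mRNA columns are pools without replicate numbers, and leaving out a replicate could not be run for the same reason. Splits by measured coding length were not run, since no lengths are in the sources used here. With columns scaled to the same sum, which also raised the values so that 12461 genes passed the filter, the medians were -0.18 for all genes, -0.13 for the 37 markers, 0.0025 for endothelial, -0.50 for lymphatic, -0.45 for pericyte and -0.23 for smooth muscle genes, 0.30 for short and -0.30 for long markers. In that setting 2 markers were at least 1.5-fold higher and 6 lower (16.2%, beside 15.4% of all genes), 1 was at least 2-fold higher (Cldn5; 2.70%, beside 1.41%), and 7 changed sign. With a pseudocount of 0.1 FPKM, 7 markers were at least 1.5-fold higher and 4 lower (18.9% and 10.8%, beside 10.3% and 9.15%), and the lymphatic median was -0.41. Quantile normalization moved no class median by 0.1 or more, and 4 markers changed sign or reached 0 (Pecam1, Cdh5, Eng and Aqp1), while Sox17 took the place of Ramp2 among the 3 at least 1.5-fold higher. No filter and a mean of at least 5 FPKM moved none of the medians by 0.1; under the latter no lymphatic gene was left. The short-to-long gap was 0.48 to 0.62 under these 5 settings and 0.64 without markers near the size limits, an alternative chosen after seeing the data. Cldn5 stayed past 2-fold and Egfl7 past 1.5-fold in each of the 5 settings. Unknown mRNA depth limits most the genes near 1 FPKM (Vwf, the lymphatic genes, Cnn1 and Lmod1).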

Other observations

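The mRNA table also lists genes that overlap or resemble markers. Its entry Mir126, within Egfl7, was at 25.2 FPKM in Null and 72.1 FPKM in WT (-1.48), the opposite direction to Egfl7 and to both mature strands, and Mir145 was listed at 0 in Null and at 16.9 FPKM in WT. At 2-fold, 252 of all 11597 genes were higher and 191 lower, against 188 and 135 of the 11425 left without small RNA genes. Small RNA entries were thus often past 2-fold in both directions, and the values of Mir126 and Mir145 say little about the precursors. The other actin genes, whose coding sequences closely resemble that of Acta2, were spread: Actb was at 356 FPKM in Null and 196 FPKM in WT, skeletal Acta1 at 320.1 FPKM in Null and 647 FPKM in WT, cardiac Actc1 at 1.25 FPKM in Null and 2.80 FPKM in WT, cytoplasmic Actg1 at 2.18 FPKM in Null and 2.26 FPKM in WT, and enteric smooth muscle Actg2 at 1.15 FPKM in Null and 0.653 FPKM in WT. Reads may be split among these copies, so the equal level of Acta2 in both pools is uncertain.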
